A study of Mus musculus with 6 samples.

Results

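The 10 genes described here encode the receptors for fibroblast growth factors (FGFs) Fgfr1, Fgfr2 and Fgfr3, and feedback or response genes of the ERK kinase cascade that these receptors drive, namely Spry1, Spry2, Spry4, Spred1, Spred2, Dusp6 and Etv5. They were chosen by name as the pathway's receptors and their best known negative regulators and response genes, and all 10 were found among the 41128 features listed in each library. All 10 were also among the 11941 genes that were tested, having reached 1 CPM (reads scaled to a common library total) in 3 or more libraries. RNA sequencing was done on whole lenses of mouse embryos at stage E15.5. The conditional knockout group (cKO, n = 3) was homozygous for a floxed allele of Itgb1, the gene of β1-integrin, and positive for the MLR10 Cre transgene, on a mixed strain background. Each cKO library came from a pool of 30 lenses. The wild-type group (WT, n = 3) was of the strain C57Bl/6, each library came from a pool of 75 lenses, and the WT records duplicate those of an older series. MLR10 is known to express Cre recombinase in both epithelial and fibre cells of the lens, from a modified αA-crystallin promoter. The labels list neither a floxed group without Cre nor a Cre group without the floxed allele. Genotype, transgene, strain, pool size and the older series of the WT records thus cannot be told apart in any difference below. Sequencing depth also differed between the groups.

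FGF binds its receptor together with heparan sulfate chains, and the paired receptors phosphorylate adaptors that switch on RAS, the RAF and MEK kinases and finally ERK. ERK activity in turn raises transcription of its own inhibitors. Sprouty (Spry) and Spred proteins restrain signalling between receptor and RAF, and the phosphatase DUSP6 removes phosphate from ERK itself, while ETV5 is an ETS transcription factor whose gene responds to FGF. In the mouse lens FGF receptors are required for fibre cell survival and differentiation. Transcript levels of these genes are often read as a record of recent ERK activity, but RNA counts measure neither receptor protein nor phosphorylated ERK.

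Between 20036554 and 28095318 reads were counted per cKO library and between 10023049 and 11531139 per WT library, so that 1 read was worth 0.0356 to 0.0998 CPM and low genes are less precise in WT. Itgb1, the floxed gene, had 236, 275 and 262 CPM in the cKO libraries and 402, 424 and 448 CPM in the WT libraries, with no overlap (log2 fold change -0.72, SE 0.077, limma adjusted p = 1.63e-05). Summed lens fibre markers were at 164660 to 184620 CPM in cKO and 174900 to 188000 CPM in WT. Summed lens epithelium markers were at 3689 to 4359 CPM in cKO and 3555 to 4333 CPM in WT. These sums overlapped but were carried mostly by Cryaa, Crybb1 and Cryab, and of the 6 fibre and 4 epithelium markers 1 of each list was called higher (Maf at 0.50 and Cdh1 at 0.46 on the log2 scale) and 1 of each lower (Mip at -0.21 and Foxe3 at -0.37, whose groups overlapped). Their part in the differences below was not tested. Markers of vessel and connective cells were higher in cKO, with 8 of 9 endothelial, 8 of 8 macrophage, 4 of 5 pericyte and 4 of 5 periocular mesenchyme markers tested past the threshold. Their summed levels were 185 to 219 against 112 to 136 CPM for endothelium, 20.9 to 30.0 against 8.93 to 10.3 CPM for macrophages, 123 to 140 against 66.6 to 74.9 CPM for pericytes and 33.6 to 51.2 against 17.2 to 20.7 CPM for mesenchyme, cKO against WT in each case, with Foxc2 at 0 in all 6 libraries. The part of these cells was likewise not tested, and in such bulk samples fewer cells of a type and less RNA per cell cannot be told apart.

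The genes did not move as a block. Fgfr1, Spred2 and Etv5 fell in cKO lenses, Dusp6 rose, and the other 6 did not pass the test. Thus 3 of 10 were lower, beside 15.9% of all tested genes, and 1 of 10 was higher, beside 20.9%. In either direction 4 of 10 were called, beside 36.9% of all tested genes, so the number of calls was near the background. The median log2 fold change of the 10 genes was -0.03, against 0.03 over all genes tested. By edgeR on recovered reads 5 of 10 were called, 1 higher and 4 lower with Fgfr3 added, beside 40.0% of genes called, 20.0% in each direction. After correction of log2 values for GC content and length, 2 were higher with Spry1 added, beside 18.1%, and 3 lower, beside 13.9%, with 32.0% called in all. CPM values did not overlap between the groups for 6 of the 10 genes, 2 higher and 4 lower in cKO, beside 48.1% of all genes tested (26.9% higher and 21.2% lower). The test was limma on log2(CPM + 1), with Benjamini-Hochberg adjustment over all 11941 genes and a threshold of 0.05, and every adjusted p for a gene is from it unless another tool is named. Fold changes are on that log2(CPM + 1) scale, cKO over WT.

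**Figure D1:**
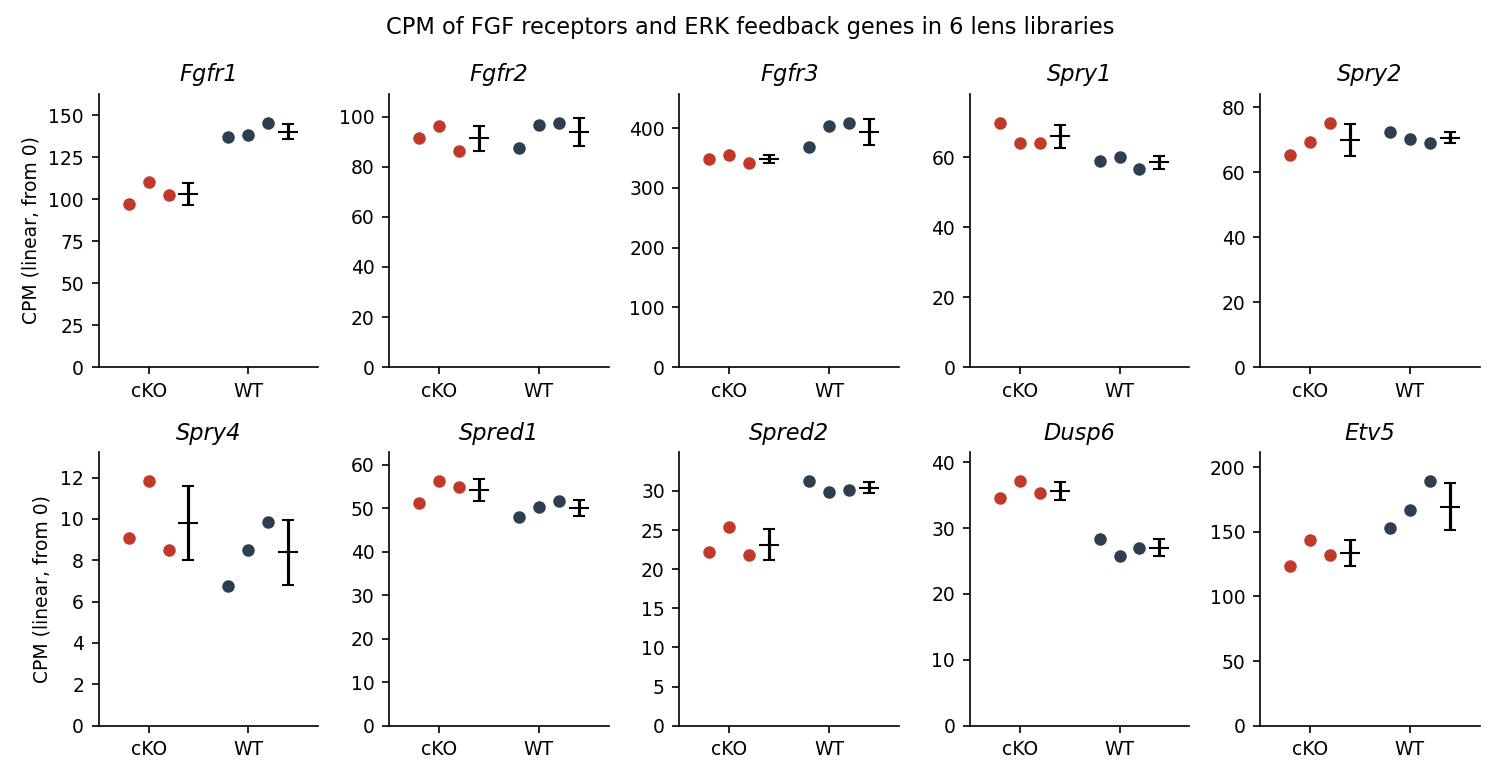
CPM of each of the 10 genes in each library (points), with the mean and SD of 3 libraries beside them (cross bar and whiskers), cKO left of WT, on linear axes from 0. Fgfr1 and Spred2 lie lower and Dusp6 higher in every cKO library than in any WT library, while the points of Fgfr2, Spry2, Spry4 and Spred1 overlap between groups.

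Among the receptors, Fgfr1 was the one that passed the test, and it fell. Fgfr1 (ENSMUSG00000031565, RefSeq GRCm38.p6 chromosome 8, 25518759 to 25575718), which encodes an FGF receptor used broadly in the embryo, had 96.9, 110 and 102 CPM in the cKO libraries and 137, 138 and 145 CPM in the WT libraries. All 3 cKO values lay below all 3 WT values. The mean fell by 26.5%, a log2 fold change of -0.44 (SE 0.074, 95% interval -0.60 to -0.28, adjusted p = 0.000586). A correction for GC and length made the log2 fold change smaller (-0.30, limma adjusted p = 0.00128). Fgfr1 lies on the same chromosome as Itgb1 (128685654 to 128733579).

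Fgfr2 (ENSMUSG00000030849, chromosome 7, 130162451 to 130266808), whose epithelial isoform binds FGF7 and FGF10, had 91.3, 96.3 and 86.4 CPM in cKO and 87.3, 96.5 and 97.6 CPM in WT. The groups overlapped, and the log2 fold change of -0.04 had a 95% interval of -0.20 to 0.13 (adjusted p = 0.735). A change of the size seen for Fgfr1 lies outside that interval.

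Fgfr3 (ENSMUSG00000054252, chromosome 5, 33721724 to 33737068), known for its role in bone growth and for its expression in differentiating lens fibre cells, had 349, 355 and 342 CPM in cKO and 368, 404 and 409 CPM in WT. The groups did not overlap, but the highest cKO value and the lowest WT value were close. The log2 fold change of -0.17 (SE 0.069, 95% interval -0.32 to -0.02) missed the threshold (adjusted p = 0.0641). With TMM scaling Fgfr3 did pass it (-0.20, adjusted p = 0.0272), as it did without WT replicate 1 (-0.22, adjusted p = 0.0258), while a correction for GC and length brought the value to -0.02 (adjusted p = 0.859). Of its annotated 50-base words, 11.6% are shared with a gene model on the opposite strand, and the library kit does not mark strand. Fgfr4, the remaining signalling receptor, had 0 to 2 reads in cKO libraries and 0 reads in each WT library, under the 3 reads that a count of 0 allows. Expression of Fgfr4 was thus not detectable at these depths.

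To compare receptors with each other, levels were taken per length, as the authors' RPKM (CPM divided by gene length in kilobases). Of the signalling receptors Fgfr1 to Fgfr4, Fgfr3 had the highest RPKM in every library. It averaged 50.5 ± 0.906 RPKM in cKO and 57.02 ± 3.24 RPKM in WT (SD, n = 3 each). Fgfr1 averaged 12.7 ± 0.810 RPKM in cKO and 17.3 ± 0.557 RPKM in WT, and Fgfr2 12.6 ± 0.680 RPKM in cKO and 13.0 ± 0.778 RPKM in WT. In WT lenses the Fgfr1 range lay above that of Fgfr2, whereas in cKO lenses the ranges overlapped. The sum of Fgfr1, Fgfr2 and Fgfr3 was 75.0, 78.2 and 74.1 RPKM in cKO and 82.3, 88.9 and 90.6 RPKM in WT. Every cKO sum was below every WT sum (2-sided exact permutation p = 0.1, the smallest that 3 against 3 libraries allow).

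The receptor mix within a library does not depend on scaling between libraries. Fgfr1 made up 15.9%, 17.3% and 17.0% of receptor RPKM in cKO and 20.5%, 19.1% and 19.8% in WT, a mean difference of -3.07 percentage points with no overlap. Fgfr2 made up 16.8%, 17.0% and 16.1% in cKO and 14.7%, 15.0% and 14.9% in WT, a mean difference of 1.79 points with no overlap. Both reached the smallest exact permutation p of 0.1 (0.2 after Benjamini-Hochberg adjustment over the 4 shares), which this design cannot take below the threshold. Fgfr3 made up 67.3%, 65.7% and 66.8% in cKO and 64.8%, 65.9% and 65.4% in WT, and these overlapped (mean difference 1.26 points, exact permutation p = 0.2, adjusted p = 0.267).

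**Figure D2:**
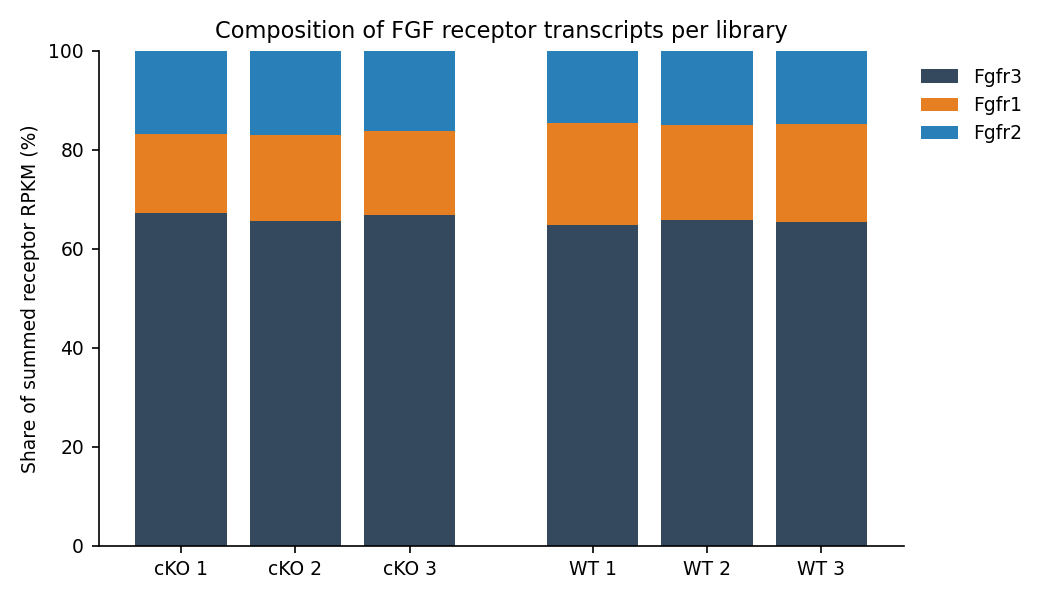
Share of the summed receptor RPKM (percent, 0 to 100) taken by Fgfr3, Fgfr1 and Fgfr2, with 1 stacked bar per library, the 3 cKO libraries left of the 3 WT libraries. Fgfr3 takes 64.8% to 67.3% in all bars, and the middle segment, Fgfr1, is narrower in each cKO bar (15.9% to 17.3%) than in each WT bar (19.1% to 20.5%).

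None of the 3 Sprouty genes passed the test by limma (0 of 3, with Spry1 alone under an unadjusted p of 0.05), by edgeR or by DESeq2. Over all tested genes 36.9% were called by limma and 40.0% by edgeR, so a count of 0 of 3 says little. Sprouty proteins are induced by receptor tyrosine kinases and in turn block RAS activation. Spry1 (ENSMUSG00000037211, chromosome 3, 37639947 to 37644599), which together with Spry2 restrains FGF signalling in the mouse lens, had 69.9, 64.2 and 64.2 CPM in cKO and 59.0, 60.1 and 56.7 CPM in WT. All cKO values lay above all WT values, but the log2 fold change of 0.17 (SE 0.075, 95% interval 0.01 to 0.33) missed the threshold (adjusted p = 0.0916). Of the alternatives, the correction for GC and length alone took it past the threshold (0.32, adjusted p = 0.00189), and 21.8% of its words are shared with a gene model on the opposite strand.

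Spry2 (ENSMUSG00000022114, chromosome 14, 105891947 to 105896819) had 65.3, 69.3 and 75.2 CPM in cKO and 72.3, 70.3 and 69.0 CPM in WT. The WT values lay inside the cKO range, and the log2 fold change was -0.02 (95% interval -0.18 to 0.15, adjusted p = 0.895). Spry4 (ENSMUSG00000024427, on chromosome 18), the lowest of the 10 genes per length, had 9.08, 11.8 and 8.51 CPM in cKO and 6.76, 8.50 and 9.88 CPM in WT. Its groups overlapped (log2 fold change 0.21, 95% interval -0.11 to 0.52, adjusted p = 0.296). The value was 0.08 without cKO replicate 2 or without WT replicate 1, and 0.32 without WT replicate 3. Spry4 rested on 182 to 239 reads in cKO and 78 to 99 reads in WT, and its interval was the widest of the 10.

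The Spred genes differed from each other. Spred proteins hold the RAS inhibitor neurofibromin at the membrane. Spred1 (ENSMUSG00000027351, chromosome 2, 117121071 to 117182279) had 51.3, 56.2 and 55.0 CPM in cKO and 48.0, 50.3 and 51.6 CPM in WT. Its groups overlapped by 1 cKO library, and the log2 fold change was 0.11 (95% interval -0.05 to 0.28, adjusted p = 0.266).

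Spred2 (ENSMUSG00000045671, chromosome 11, 19924442 to 20024026) had 22.2, 25.4 and 21.8 CPM in cKO and 31.2, 29.9 and 30.1 CPM in WT. All cKO values lay below all WT values, and the WT values were closer together than the cKO values. The mean fell by 23.9%, a log2 fold change of -0.38 (SE 0.088, 95% interval -0.57 to -0.19, adjusted p = 0.00431).

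Dusp6 (ENSMUSG00000019960, chromosome 10, 99263231 to 99267489), the phosphatase specific for ERK, had 34.5, 37.1 and 35.3 CPM in cKO and 28.4, 25.8 and 26.9 CPM in WT. All cKO values lay above all WT values. The mean was 1.32-fold that of WT, a log2 fold change of 0.39 (SE 0.081, 95% interval 0.21 to 0.56, adjusted p = 0.00249). None of its words are shared with another annotated gene. With cKO replicate 2 and WT replicate 2 both left out, a choice made after seeing the data, the adjusted p was 0.0495.

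Etv5 (ENSMUSG00000013089, chromosome 16, 22381313 to 22439570) had 124, 144 and 132 CPM in cKO and 153, 167 and 189 CPM in WT. The groups did not overlap, though the highest cKO and lowest WT values were close, and the WT libraries spread widely. The mean fell by 21.3%, a log2 fold change of -0.34 (SE 0.088, 95% interval -0.53 to -0.15, adjusted p = 0.00895). Of its words, 24.5% are shared with the gene model Gm4798, so part of its reads could belong to that copy.

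**Figure D3:**
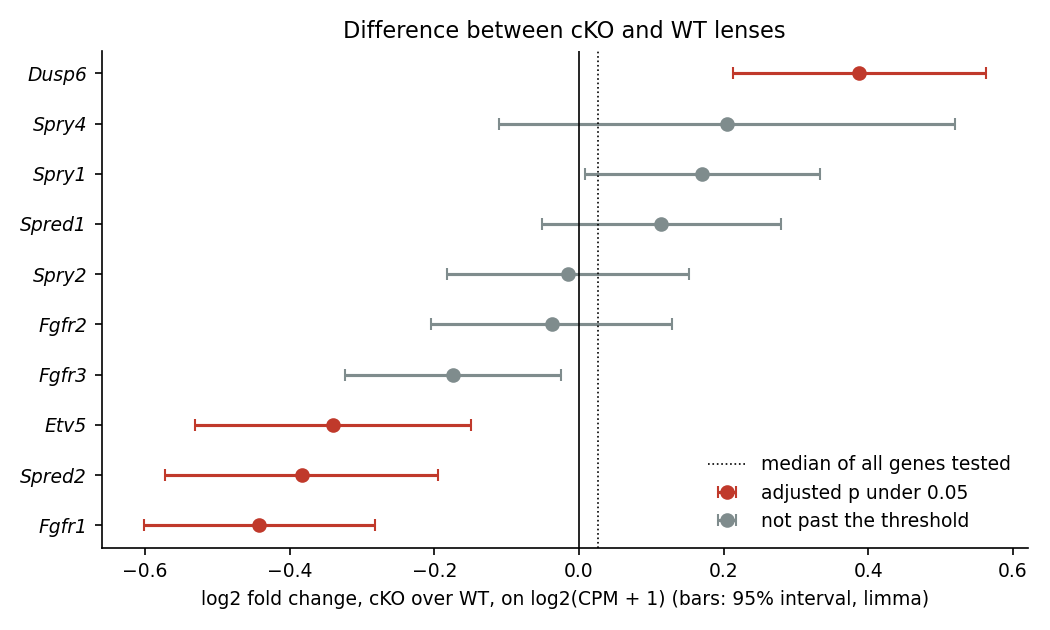
Log2 fold change of each of the 10 genes, cKO over WT, on the log2(CPM + 1) scale (points), with 95% intervals from limma (bars), red where the adjusted p is under 0.05. Dusp6 is the red point at 0.39, and Etv5, Spred2 and Fgfr1 are the red points at -0.34, -0.38 and -0.44, while the dotted line marks the median of all genes tested at 0.03.

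Dusp6 and Etv5 are both known as transcripts that rise with FGF signalling, yet they moved in opposite directions here. The DNA before their start sites and before that of Spred2 is shown as a description only. Its part in these differences was not tested. Sequences are from RefSeq on GRCm38.p6, and each is the longest stretch, within the 250 bases before an annotated start site, that no annotated exon covers, read 5′ to 3′ on the gene's strand. Capitals mark CGGAA or its reverse complement TTCCG, part of the longer ETS motif CCGGAAG and called the ETS core here. The shorter GGAA and its reverse complement TTCC were not searched. They also stand in lower case in the Dusp6, Spred2 and inner Etv5 stretches. The intervals are chr10:99262981-99263230 (plus strand) for Dusp6, chr11:19924192-19924374 (plus) for Spred2, and chr16:22439720-22439820 and chr16:22438369-22438618 (minus) for the outer and inner start site of Etv5.
Dusp6: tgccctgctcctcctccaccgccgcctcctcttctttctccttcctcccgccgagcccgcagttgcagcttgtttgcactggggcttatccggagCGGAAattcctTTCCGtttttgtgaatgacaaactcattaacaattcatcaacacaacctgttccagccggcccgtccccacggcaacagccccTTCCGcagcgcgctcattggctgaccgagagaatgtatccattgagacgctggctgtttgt
Spred2: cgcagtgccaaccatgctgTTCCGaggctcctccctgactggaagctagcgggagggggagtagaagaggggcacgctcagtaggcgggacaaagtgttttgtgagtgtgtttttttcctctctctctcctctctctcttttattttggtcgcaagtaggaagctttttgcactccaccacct
Etv5 outer start: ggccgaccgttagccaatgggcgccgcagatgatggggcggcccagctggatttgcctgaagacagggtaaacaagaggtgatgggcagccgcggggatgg
Etv5 inner start: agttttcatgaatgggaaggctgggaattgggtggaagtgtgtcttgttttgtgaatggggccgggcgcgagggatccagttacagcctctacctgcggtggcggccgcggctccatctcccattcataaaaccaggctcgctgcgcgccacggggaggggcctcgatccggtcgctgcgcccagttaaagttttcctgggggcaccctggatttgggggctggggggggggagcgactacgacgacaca

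The Dusp6 stretch held the core 3 times, at -155, -144 and -61 from the start site, the Spred2 stretch held it once, at -231 (a further site at -42 lies past its end), and neither Etv5 stretch held it. These stretches were of unequal length, with 250 bases for Dusp6, 183 for Spred2, and 101 and 250 for the outer and inner start site of Etv5. The core was searched on both strands of the full 300-base windows, and it overlaps the longer ETS motif CCGGAAG. It was found in 4 of the 10 windows that the table gives for 8 of the 10 genes (Dusp6, Spred1, Spred2 and Spry2), and in 29.9% of all 32851 windows. The longer motif CCGGAAG (8.86% of all windows), the CRE TGACGTCA (1.79%) and the AP-1 site TGANTCA (7.81%) were in none of the 10 windows, and the EGR motif GCGGGGGCG (2.91%) was in 1, that of Fgfr3. The ETS core was chosen after the longer motifs had been searched. A letter match is a description of the sequence and was not tested as a binding site.

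Ranked per length, the receptors and their inhibitors spanned a wide range of levels. The order rests on the deposited gene lengths. These were 8.12 kb for Fgfr1, 7.24 kb for Fgfr2 and 6.91 kb for Fgfr3, beyond their longest annotated transcripts of 5041, 4429 and 4245 bases. For Dusp6 the deposited 2.796 kb equalled the longest transcript (2796 bases). With transcript lengths the receptors would stand higher, and Dusp6 would be below both Fgfr1 and Fgfr2 in both groups. In cKO lenses the order was Fgfr3 (50.5 RPKM), Spry2 (33.5), Etv5 (32.5), Spry1 (22.8), Dusp6 (12.8), Fgfr1 (12.7), Fgfr2 (12.6), Spred1 (7.98), Spred2 (5.01) and Spry4 (2.14 RPKM). Spry2 and Etv5 overlapped, as did Dusp6 with Fgfr1 and Fgfr1 with Fgfr2, while the other neighbours in this order did not. In WT lenses the order was Fgfr3 (57.02 RPKM), Etv5 (41.3), Spry2 (33.8), Spry1 (20.2), Fgfr1 (17.3), Fgfr2 (13.0), Dusp6 (9.66), Spred1 (7.36), Spred2 (6.58) and Spry4 (1.83 RPKM), with no overlap between neighbours. Etv5 stood above Spry2 in WT lenses, and Dusp6 stood below both Fgfr1 and Fgfr2.

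Ratios of RPKM within a library compare relatives without any scaling between libraries. The largest shift of the 7 ratios examined was that of Dusp6 over Etv5, with log2 ratios of -1.29, -1.40 and -1.35 in cKO and -1.88, -2.14 and -2.26 in WT, a difference of 0.74. The log2 ratio of Spred1 over Spred2 was 0.66, 0.59 and 0.78 in cKO and 0.06, 0.20 and 0.22 in WT, a difference of 0.51. That of Fgfr1 over Fgfr2 was -0.08, 0.03 and 0.08 in cKO and 0.49, 0.35 and 0.41 in WT, a difference of -0.41. In these 3 ratios no cKO library overlapped a WT library.

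The remaining receptor ratios also did not overlap, with differences of -0.27 for Fgfr1 over Fgfr3 and 0.14 for Fgfr2 over Fgfr3. For these 5 ratios the exact permutation p was 0.1, the smallest possible (0.14 adjusted over the 7 ratios). Spry1 over Spry2 (difference 0.19, exact permutation p = 0.2) and Spry2 over Spry4 (difference -0.24, exact permutation p = 0.5) overlapped between groups.

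The spread between replicates was set beside the spread that read sampling alone gives, and it was above that in both groups for Fgfr1, Fgfr2, Fgfr3, Spry4 and Etv5. For Etv5 the coefficient of variation was 7.57% in cKO and 10.8% in WT, against 1.84% and 2.32% from counting. For Fgfr3 it was 1.80% in cKO and 5.68% in WT, against 1.14% and 1.52%. For Dusp6 it was 3.69% in cKO and 4.79% in WT, against 3.55% and 5.82%, so its spread was near that of counting. Spry4 varied most, at 18.1% in cKO and 18.6% in WT, against 6.80% and 10.5%.

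The genes whose profile over the 6 libraries lay closest to that of a called gene were not of the FGF pathway lists. Those lists hold few of the genes searched, so this says little about the pathway. Likeness was the root mean square difference of centred log2(CPM + 1) values. The search covered 7805 genes whose mean reached 10 CPM, with gene models lacking a proper name left out. It is a description over 6 libraries that share depth and group. The closest to Fgfr1 were Wdr18 (0.0153), Ttll12 (0.0208) and Ddx56 (0.0232). The closest to Dusp6 were Eapp (0.0275), Set (0.0289) and Usp33 (0.0289). Those closest to Spred2 were Mdh2 (0.0288), Ogfrl1 (0.0304) and Tmem8 (0.0333), and those closest to Etv5 were Sbf1 (0.0229), Copa (0.0262) and Gusb (0.0287).

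Transcripts of the ligands were nearly undetected in the lens libraries. Of 18 secreted FGF genes listed, 6 had 0 reads in all 6 libraries, and 11 had at most 9 reads in any library. A count of 0 allows up to 3 reads, which is 0.107 to 0.150 CPM in cKO and 0.260 to 0.299 CPM in WT. Fgf9, a ligand known from the retina, had 2, 9 and 9 reads in cKO and 1, 7 and 2 reads in WT.

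Fgf15 (ENSMUSG00000031073), the mouse counterpart of human FGF19, was the only ligand gene tested. It had 1.60, 6.58 and 4.38 CPM in cKO, from 32, 133 and 123 reads, and 0.347, 3.16 and 0.0998 CPM in WT, from 4, 36 and 1 reads. The second WT library lay inside the cKO range, and the log2 fold change of 1.37 (SE 0.64, 95% interval -0.24 to 2.98) did not pass the test (adjusted p = 0.158). It passed without WT replicate 2 (1.96, adjusted p = 0.0033) and with both second libraries left out, a choice made after seeing the data (1.62, adjusted p = 0.00684), and was at 1.00 without WT replicate 3 (adjusted p = 0.425). The summed neural retina markers Rax, Lhx2, Six6 and Atoh7 were at 1.55, 4.601 and 2.14 CPM in cKO and 0.434, 6.93 and 0.1995 CPM in WT. The second library was the highest of its group in both measures, no marker was at 0 throughout a group, and none of the 4 was high enough to test. Their part in the Fgf15 difference was not tested. Fgf15 shares 21.3% of its words with a gene on the opposite strand.

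**Figure D4:**
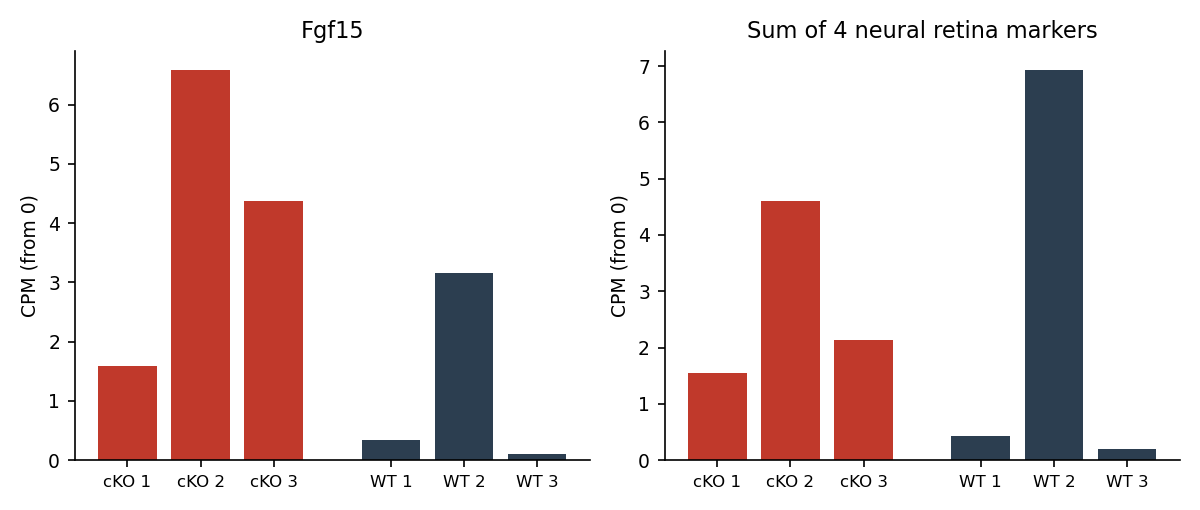
CPM of Fgf15 (left) and the summed CPM of 4 neural retina markers (right), with 1 bar per library on linear axes from 0, cKO left of WT. In both panels the second library of each group is the highest, with Fgf15 at 6.58 CPM in cKO and 3.16 CPM in WT, and the markers at 4.601 CPM in cKO and 6.93 CPM in WT.

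Among 7 other receptors and co-receptors, Fgfrl1 and Flrt2 had levels high enough to test. Fgfrl1 (ENSMUSG00000008090, chromosome 5, 108694229 to 108706950), an FGF-binding receptor that lacks the kinase domain, fell to 186 ± 6.90 CPM in cKO lenses, against 292 ± 14.03 CPM in WT lenses (SD, n = 3 each; log2 fold change -0.65, SE 0.070, adjusted p = 1.69e-05). Its RPKM was 69.9 ± 2.60 in cKO and 110 ± 5.28 in WT, above that of each signalling receptor in both groups. This order rests on the deposited lengths (2.66 kb for Fgfrl1 and 6.91 kb for Fgfr3). With their longest annotated transcripts (2329 and 4245 bases) Fgfrl1 would not stand above Fgfr3 in cKO. By CPM, Fgfr3 (349 in cKO and 394 in WT) was above Fgfrl1 in both groups. Flrt2, a membrane protein that binds FGF receptors, had 270 ± 16.6 CPM in cKO and 273 ± 32.9 CPM in WT (log2 fold change -0.01, adjusted p = 0.965).

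The 12 genes listed as receptor adaptors, among them Cbl and the phospholipase gene Plcg1, were all tested. Of these, 2 were higher and 1 lower in cKO, beside 20.9% higher and 15.9% lower of all tested genes. Their median log2 fold change was 0.09. Leaving out cKO replicate 2 or WT replicate 1 gave 0 higher, and leaving out cKO replicate 3 or WT replicate 2 gave 1. Leaving out cKO replicate 1 or 3 or WT replicate 2 or 3 gave 0 lower, and leaving out WT replicate 1 gave 2. Sos2, an exchange factor that loads RAS with GTP, rose to 52.5 ± 3.95 CPM in cKO, against 42.0 ± 3.92 CPM in WT (log2 fold change 0.32, adjusted p = 0.0148), which no longer passed when cKO replicate 2 (0.26) or WT replicate 1 (0.24) was left out. Crk, an SH2 and SH3 domain adaptor, was at 0.20 (adjusted p = 0.0346), which failed under 8 of 18 alternatives, leaving out cKO replicate 2 or 3 or WT replicate 1 or 2 among them. Plcg1, the phospholipase bound directly by FGF receptors, was at -0.48 (adjusted p = 0.0222), which no longer passed when cKO replicate 1 or 3 or WT replicate 2 or 3 was left out. Frs2, the docking protein specific to FGF and neurotrophin receptors, was at 0.03 (95% interval -0.17 to 0.23, adjusted p = 0.830).

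The cascade from RAS to ERK went both ways, with 4 of 14 tested genes higher and 4 lower, beside 20.9% and 15.9% of all tested genes, and a median of 0.02. Leaving out cKO replicate 2 or WT replicate 1 or 2 gave 2 higher, and leaving out cKO replicate 1 gave 2 lower. Hras, the gene of a RAS protein, fell to 55.5 ± 1.29 CPM in cKO, against 77.6 ± 6.77 CPM in WT (log2 fold change -0.47, adjusted p = 0.000686). Nras, the gene of another RAS protein, was more abundant and went the other way, at 229 ± 13.0 CPM in cKO and 190 ± 14.5 CPM in WT. Its log2 fold change of 0.27 (adjusted p = 0.0165) did not keep its call under 5 of 18 alternatives. Rps6ka2 was at -0.38 (adjusted p = 0.0149), a call lost under 2 of 18 alternatives. Braf, a RAF kinase gene, was at 0.31 (adjusted p = 0.00795) and Map2k2, the gene of MEK2, at -0.41 (adjusted p = 0.000548). Braf did not pass after the correction for GC and length (0.17), under which Rasa1 was at 0.21. Rasa1, which inactivates RAS, rose by 0.36 (adjusted p = 0.00326), a call lost under 1 of 18 alternatives. Mapk3, the gene of ERK1, did not pass the test (-0.13, adjusted p = 0.189).

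Of 19 further feedback and ERK-responsive genes listed, 16 were tested, 4 were higher by limma, beside 20.9% of all tested genes, and the median was 0.14. That share was near the background. None was lower (0 by limma, also at an unadjusted p under 0.05, by edgeR and by DESeq2), beside 15.9% of all tested genes by limma and 20.0% by edgeR. Phlda1, known to be induced by ERK, rose to 17.9 ± 0.985 CPM in cKO, against 10.6 ± 0.795 CPM in WT (log2 fold change 0.71, adjusted p = 0.000163), with 29.3% of its words shared with an opposite-strand gene. The other 3 encode phosphatases of the DUSP family. Dusp1, an immediate early phosphatase of nuclear MAP kinases, was at 0.37 (adjusted p = 0.00327), Dusp16 at 0.55 (adjusted p = 0.00386) and Dusp8 at 0.67 (adjusted p = 0.024), and the last 2 are known to act chiefly on the stress kinases JNK and p38. Dusp8 did not pass when cKO replicate 2 (0.56) or 3 (0.59) was left out. Among other relatives of the 10 genes, these 4 did not pass the test, with Spred3 at 0.0049, Etv4 at 0.08, Etv1 at 0.11 and Dusp7, an ERK phosphatase like Dusp6, at -0.13 (adjusted p = 0.343).

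Heparan sulfate genes, whose products build, trim and carry the chains that FGF needs, had 3 of 21 higher and 7 lower, beside 20.9% and 15.9% of all tested genes, with a median of -0.10. Leaving out cKO replicate 3 gave 4 lower. Carrier proteins stood on both sides, with Sdc4 at 0.75 (50.5 ± 2.90 CPM in cKO and 29.6 ± 0.636 CPM in WT, adjusted p = 1.41e-05), Gpc4 at 0.52 (adjusted p = 0.000408) and Gpc1 at -0.32 (adjusted p = 0.00518). Among genes for chain synthesis and editing, Sulf1, a sulfatase that removes 6-O-sulfate, fell to 80.4 ± 9.59 CPM in cKO, against 122 ± 4.72 CPM in WT (-0.61, adjusted p = 0.000202). Hs6st1, which adds 6-O-sulfate, fell by 0.50 (adjusted p = 0.000559), and Extl3, which helps to start the chain, fell by 0.42 (adjusted p = 0.00418). Gpc1 did not pass after the correction for GC and length (-0.16).

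**Figure D5:**
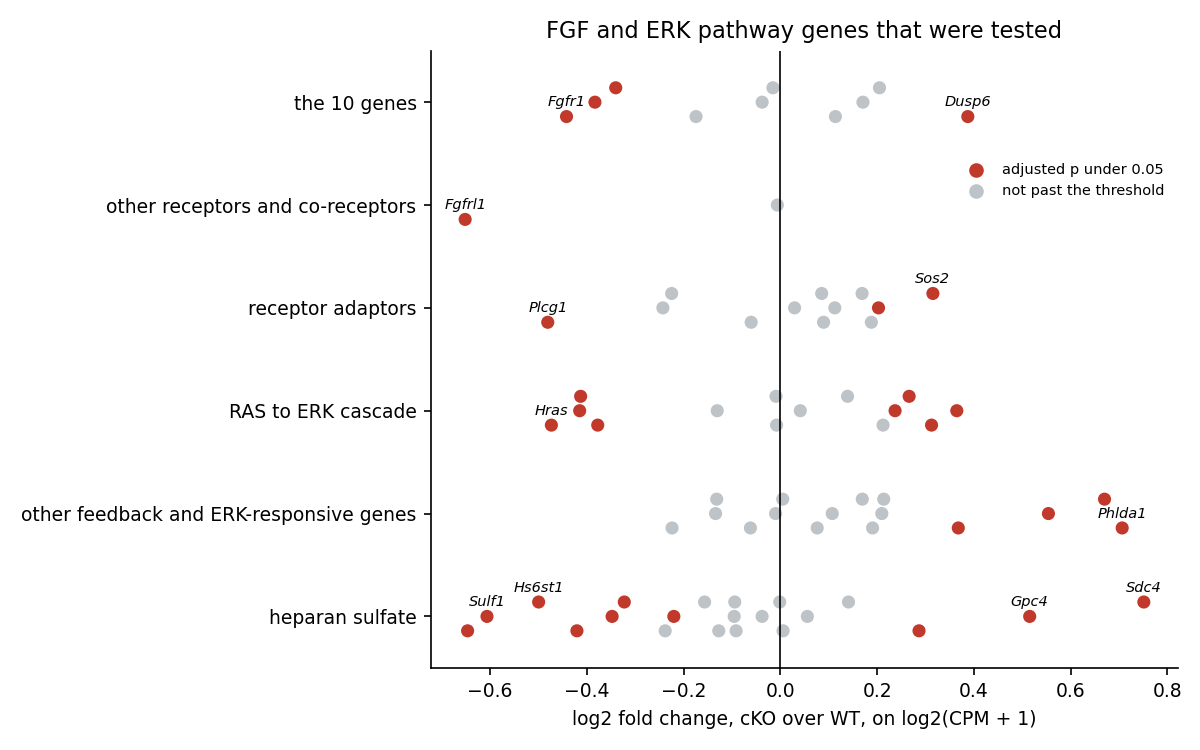
Log2 fold change, cKO over WT on log2(CPM + 1), of the 10 genes and of tested members of 5 further lists, 1 point per gene, red where the adjusted p is under 0.05 and spread vertically within a row for legibility only. The feedback row has red points only on the right (4 of 16), whereas the RAS to ERK row has 4 on each side and the heparan sulfate row 3 on the right and 7 on the left, beside 20.9% higher and 15.9% lower among all tested genes.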

How the data were processed

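The authors deposited CPM and RPKM of 41128 features per library. Submitters' processing notes mention edgeR and GRCm38, and the aligner and counter were not given in the sources used here. Libraries were poly(A) selected, made with a kit that does not mark strand and read single-end, per the labels' protocols. Features with no Ensembl identifier took about 0.21% of reads in cKO libraries.

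The main test was limma 3.58.1 (R 4.3.3), trend and robust moderation, on log2(CPM + 1) with group as the only term, over genes reaching 1 CPM in 3 or more libraries. The plan allowed an edgeR count test had counts been deposited. CPM values were whole multiples of 1 read within 0.02 reads (99.9976% to 100% of values), so edgeR 4.0.16 and DESeq2 1.42.0 were run on recovered reads as alternatives, and edgeR called 4776 genes. TMM and RLE scaling, other filters, a pseudocount of 0.1, GC content and length, limma-voom, thinning and left-out libraries were further alternatives. Shares and ratios used exact permutation tests.

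The members and gene lists were chosen with earlier results of these data known. Named genes are Itgb1, the 10 members, every tested ligand, up to 6 called genes of each list by smallest adjusted p, and the 3 nearest profiles of Fgfr1, Dusp6, Spred2 and Etv5, and other genes were named after their values were seen. Some genes of the planned lists are not reported here and are in none of the lists' counts or sums. Replicates are separate biological pools per the labels, and within a group they differed by more than counting noise (chi-square per degree of freedom 9.42 to 20.06 in cKO and 4.23 to 9.59 in WT). Words are 50-base stretches of GENCODE M21 transcripts, and 99.4% of tested genes had a GC content. Coordinates and promoter sequences are RefSeq's on GRCm38.p6, and the promoter table held windows for 8 of the 10 genes. Spry3 was not analysed here, and counting intervals and floors cover counting error only.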

Additional observations from a re-analysis of the deposited data

How the results depend on the processing

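Fgfr1, Spred2, Dusp6, Etv5, Itgb1 and Fgfrl1 kept their direction and call under all 18 alternatives. Correction for GC content and length gave 2 of the 10 genes higher (with Spry1 at 0.32), 1 RAS to ERK gene higher and 4 heparan sulfate genes lower, and turned Fgfr2 to 0.025 and Spred1 to -0.064. Fgfr3 passed the threshold at -0.20 with TMM or RLE scaling, edgeR, DESeq2 and limma-voom, and at -0.17 with the replicate number as a block. Thinning turned Spry2 to 0.011. Leaving out single libraries gave Fgfr2 -0.088 to 0.0011, Spry2 -0.068 to 0.032, Fgfr3 -0.22 to -0.15, 0 to 3 adaptors higher and 0 to 2 lower, 2 to 5 RAS to ERK genes higher and 2 to 4 lower, and 4 to 7 heparan sulfate genes lower. Adaptors higher were 1 with no filter and with DESeq2, and adaptors lower were 2 with TMM or RLE scaling, the block, edgeR, DESeq2 and limma-voom. With both second libraries left out, an alternative added after seeing the data, 1360 genes were higher over all genes, 0 adaptors and 1 RAS to ERK gene, with 2 libraries a group. The cause of these moves was not tested, and leaving out libraries also lowered the number of samples.

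Same-numbered libraries did not deviate together throughout (correlations 0.33, -0.03 and 0.15 for replicates 1, 2 and 3, and 3 of 6 libraries correlated best with their own number), so a pairing by number was not established, and the block was not used for the results above. With the replicate block 2916 genes were higher and 2249 lower, 4 of the 10 genes were lower, and Fgf15 was called (adjusted p = 0.000559). For receptor shares and within-library ratios the alternatives were CPM in place of RPKM, Fgfr4 left out (shares), 0.1 added to both values (ratios) and left-out libraries. All of them moved the difference by less than the SD pooled over both groups, though for some by more than the smaller group SD. CPM in place of RPKM cannot move a difference of log2 ratios. The correction for GC and length was not applied to shares or ratios, so their dependence on it was not tested. Among the 10 genes, depth limits Spry4 most, with 78 to 99 reads in WT.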
